A study of Mus musculus with 30 samples.

Results

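The orders Lactobacillales and Erysipelotrichales of the class Bacilli were followed in the stool of female mice lacking Gpr15l (Gpr15l-/-, here KO) and of wild-type (WT) mice. Members were the sequence variants whose taxon label named either order and that had reads in any of 30 libraries. They numbered 37 of the 949 bacterial variants with reads, 14 in Lactobacillales and 23 in Erysipelotrichales. They fell into 8 genera or lowest names, led by Lactobacillus (g__Lactobacillus), Dubosiella (g__Dubosiella), Candidatus Stoquefichus (g__Candidatus_Stoquefichus) and Erysipelotrichaceae without a genus name. A further 130 of the 167 table rows of these orders had no reads in the 30 libraries.

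Lactobacillales are lactic acid bacteria, which ferment sugars to lactate and tolerate acid. Lactobacillus lives in the mouse forestomach as well as in the gut, is taken up from the mother and reaches other mice through eaten faeces. Erysipelotrichales are anaerobic Firmicutes of the mammalian gut, some of which respond to dietary fat and sugar. Dubosiella and Faecalibaculum are members found in laboratory mice, and D. newyorkensis is the type species of Dubosiella. Gpr15l encodes a peptide of gut and skin epithelium that is the ligand of GPR15, a homing receptor of lymphocytes.

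Amplicons of the V4 region of 16S rRNA genes were sequenced at 3 times. The first was weaning, at about 4 weeks of age. The second came after 4 to 5 weeks of co-housing, with 2 to 7 mice in cages that mixed the genotypes, and the third after a further 6 weeks with the genotypes apart (re-separation). There were 5 libraries for each of the 6 groups. By the labels' numbers, libraries 1 to 5 were KO at weaning, 11 to 15 KO after co-housing and 21 to 25 KO after re-separation, while 6 to 10, 16 to 20 and 26 to 30 were WT at those times in turn. The labels give no cage, litter or strain and do not follow a mouse between times, so the p-values reflect the spread among these samples alone. After re-separation, with the genotypes apart, genotype and cage cannot be told apart. The genotype of a library rests on its label.

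Libraries held 10491 to 52364 bacterial reads at weaning and co-housing and 39703 to 73588 at re-separation. No variant had reads in both sets of libraries, so variants were compared within a set. Genera and orders were compared across all 6 groups, where re-separation and library set cannot be told apart. The mice were also older at each later time, so age and housing cannot be told apart in any comparison between times. Libraries 1, 11 and 19 had the highest mean Bray-Curtis distance to the rest of their group (0.749, 0.547 and 0.543). Library 5 had the second highest of its group (0.606) and 30.6% Bacteroidales against 60.6% to 81.7% in the other KO libraries at weaning. Fits were also run without these 4 libraries. All shares below are percentages of the bacterial reads of a library, given as mean ± SD with n = 5 per group, and a lower share cannot be told apart from more of other bacteria. Log2 fold changes come from edgeR's quasi-likelihood test, and "called" means an adjusted p (Benjamini-Hochberg over all taxa tested) under 0.05. The value after ± is an approximate standard error, the size of the fold change divided by the square root of the test's F statistic. Where a group had 0 reads, both depend on edgeR's prior count. A bound against a group with 0 reads uses a floor of 3 reads per library.

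Both orders were minor parts of the stool bacteria. Lactobacillales averaged 0.276% over the 30 libraries and ranked 12 of 35 orders, with at most 1.49% in a library. Erysipelotrichales averaged 0.0751%, ranked 16 and reached at most 0.554%. They rested on 1919 and 404 reads in libraries 1 to 20 and on 751 and 488 in the re-separation libraries. Of the 8 member genera 4 passed the filter of at least 10 reads in at least 3 libraries, and the counts of calls below are over those 4 only.

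Lactobacillales were nearly all Lactobacillus, and the order fell in WT mice between weaning and co-housing. The order's mean went from 0.703% ± 0.648 to 0.100% ± 0.0745 in WT and from 0.239% ± 0.129 to 0.363% ± 0.423 in KO. The WT fall was called (log2 fold change -3.85 ± 1.08; edgeR adjusted p = 0.00514), and 40.7% of the 27 orders tested were called in that comparison. The KO difference of 0.16 ± 0.97 was not called (edgeR adjusted p = 0.936), with 25.9% of orders called.

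Erysipelotrichales were found in 1 of 5 KO libraries and 5 of 5 WT libraries at weaning. The only KO library with reads was library 4, with 29 reads (0.0876%), while the WT libraries held 0.0383%, 0.121%, 0.0840%, 0.114% and 0.0238%. Library 4 lay within the WT range and the other 4 KO libraries below it. The order mean was 0.0175% ± 0.0392 in KO and 0.0762% ± 0.0438 in WT. The difference was not called (log2 fold change -2.07 ± 1.31; edgeR adjusted p = 0.236), and without library 4 it was (edgeR adjusted p = 0.000832).

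After co-housing the order was more abundant in KO than in WT libraries on average, and the ranges overlapped. KO libraries held 0.554%, 0, 0.187%, 0.0338% and 0.0259%, and WT libraries 0.0680%, 0.0235%, 0.00526%, 0.0147% and 0.00871%. Library 11 alone held 141 of the 233 KO reads. The log2 fold change was 2.75 ± 1.32 (unadjusted p = 0.0443; edgeR adjusted p = 0.514).

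After re-separation every KO library held more Erysipelotrichales than every WT library. The KO values were 0.0668%, 0.245%, 0.178%, 0.156% and 0.0582%, and the WT values 0.0150%, 0.0327%, 0.0461%, 0.0120% and 0.0529%. The lowest KO value and the highest WT value lay close together. The means were 0.141% ± 0.0787 and 0.0317% ± 0.0182. The test did not call the difference (log2 fold change 2.34 ± 1.29; unadjusted p = 0.0769; edgeR adjusted p = 0.732).

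**Figure D1:**
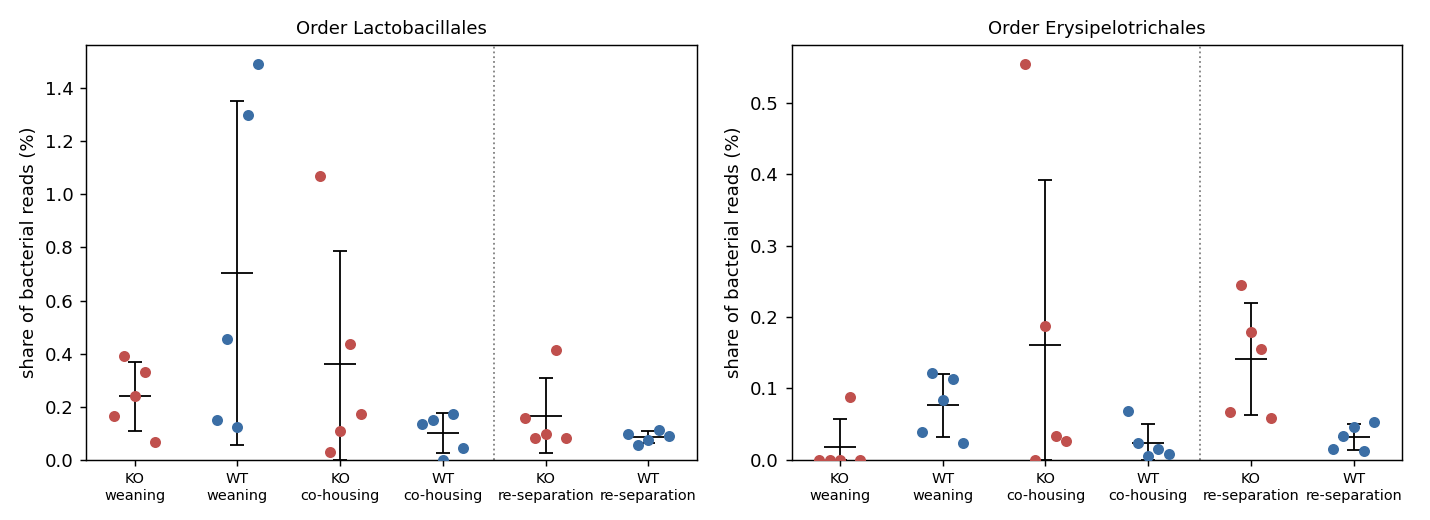
Share of bacterial reads (%) of Lactobacillales (left) and Erysipelotrichales (right) in each of the 6 groups; each point is 1 library, the horizontal line the mean and the bars 1 SD, cut at 0, with the re-separation library set to the right of the dotted line. WT Lactobacillales spread from 0.124% to 1.49% at weaning and stayed at or below 0.172% later, and KO Erysipelotrichales lay above WT in all 5 libraries after re-separation.

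In the genotype comparisons neither order was called at any time. Over all 27 orders tested, 22.2% were called at weaning, 0% in co-housed mice and 0% once re-separated. Unadjusted p was under 0.05 for 11, 2 and 0 orders, of which 1, 1 and 0 were of the pair studied. DESeq2 and limma-voom called neither order after co-housing or re-separation, and each called 1 at weaning. The genotype difference of Lactobacillales was -2.36 ± 1.01 (log2) at weaning (edgeR adjusted p = 0.0749), 1.65 ± 0.99 after co-housing (0.514) and 1.37 ± 0.98 after re-separation (0.732).

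Between weaning and re-separation 29.6% of orders were called in KO and 29.6% in WT, and Lactobacillales in WT was the only call within the pair (log2 fold change -3.91 ± 1.08; edgeR adjusted p = 0.00771). Between co-housing and re-separation 25.9% of orders were called in KO and 7.41% in WT, with neither of the pair among them in either genotype.

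Lactobacillus was found in 19 of libraries 1 to 20 and in 10 of 10 after re-separation, and its share was highest in WT mice at weaning. WT libraries at weaning held 0.149%, 0.453%, 0.124%, 1.30% and 1.48% of reads, and KO libraries 0.166%, 0.390%, 0.241%, 0.332% and 0.0667%. The WT group thus had 2 libraries, 9 and 10, above 1%, and its other 3 lay within or near the KO range. The means were 0.702% ± 0.646 in WT and 0.239% ± 0.129 in KO. The fitted log2 fold change of KO over WT was -2.36 ± 0.99, with an unadjusted p of 0.0204 and an edgeR adjusted p of 0.0710, which is not a call. Leaving out library 4 (edgeR adjusted p = 0.0406) or using DESeq2 (adjusted p = 0.0450) gave a call.

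In WT mice Lactobacillus was lower after co-housing than at weaning. Co-housed WT libraries held 0.136%, 0.150%, 0, 0.172% and 0.0435%, a mean of 0.100% ± 0.0745. The highest of them lay above 2 of the 5 WT values at weaning, so the groups overlapped. The log2 fold change was -3.85 ± 1.06 (edgeR adjusted p = 0.0105). The median over all genera tested was 0.902 in this comparison, and scaling by library size, which moved that median by 0.92, gave -2.81 (adjusted p = 0.0278). The call was made under 38 of 38 alternatives, many of which left out 1 library outside the groups compared.

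KO mice showed no called change of Lactobacillus over that interval. The co-housed KO libraries held 1.07%, 0.0311%, 0.107%, 0.435% and 0.172%, a mean of 0.363% ± 0.423. Library 11 was far above the rest, and without it the mean was 0.186%. KO and WT after co-housing were not separated by the test (log2 fold change 1.65 ± 0.97; edgeR adjusted p = 0.518), and their ranges overlapped.

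After re-separation the genus was present in 10 of 10 libraries at lower spread. KO libraries held 0.156%, 0.0829%, 0.0972%, 0.415% and 0.0808%, and WT libraries 0.0978%, 0.0545%, 0.0744%, 0.113% and 0.0882%. Library 24 was the highest, and the other 4 KO values overlapped with WT. The means were 0.166% ± 0.142 and 0.0856% ± 0.0224 (log2 fold change 1.37 ± 0.96; edgeR adjusted p = 0.743).

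Compared with weaning, Lactobacillus was lower in WT after re-separation (log2 fold change -3.90 ± 1.06; edgeR adjusted p = 0.0111). This call shares its weaning libraries with the co-housing one. It was lost without library 9 (adjusted p = 0.0623), without library 10 (0.0550) and in limma-voom (0.0543). In KO the difference from weaning was not called (edgeR adjusted p = 1).

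The genotype difference of Lactobacillus was tested for change over time by interaction terms. From weaning to re-separation it moved by 3.72 ± 1.38 (log2) towards KO, with an edgeR adjusted p of 0.0487, and the call was made under 10 of 38 alternatives (adjusted p 0.0288 to 0.313). The libraries whose removal ended it with the highest adjusted p were 24 (0.164), 9 (0.148) and 10 (0.119). From weaning to co-housing the move was 4.01 ± 1.39 (edgeR adjusted p = 0.0542), called under 7 of 38 alternatives.

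Lactobacillus consisted mainly of a pair of variants in each library set. In the weaning and co-housing libraries row 497 of the table held 48.8% of the genus's reads and row 455 held 39.8%. Row 454 followed with 5.90%. The 4 minor variants in rows 450, 451, 452 (labelled Lactobacillus_reuteri) and 496 (labelled Lactobacillus_intestinalis) held the rest. L. reuteri is a biofilm former of the rodent forestomach, and L. intestinalis is a rodent gut species.

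At weaning row 455 was in 5 of 5 libraries of each genotype, whereas row 497 was in 5 of 5 WT and 2 of 5 KO libraries. Row 497 held 0.182% and 0.187% of reads in KO libraries 2 and 4, had 0 reads in libraries 1, 3 and 5, and lay between 0.0649% and 0.811% in WT. The test did not call it (unadjusted p = 0.194; edgeR adjusted p = 0.368). Co-housed KO libraries carried row 497 in 4 of 5 and WT libraries in 3 of 5. Among the co-housed libraries 3 held a single variant, row 497 in WT library 16, row 455 in WT library 20 and row 450 in KO library 12.

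Library 11 carried the widest set of Lactobacillus variants. Rows 451, 452 and 496 were found in it alone, with 22, 29 and 4 reads. Row 454 had 52 reads there and none in the other 9 co-housed libraries. At weaning that variant was in 3 KO and 2 WT libraries. Its genotype difference after co-housing was not called (log2 fold change 6.57 ± 2.48; unadjusted p = 0.0111; edgeR adjusted p = 0.141), and it had no reads left without library 11.

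In the re-separation libraries row 1663 held 70.8% of Lactobacillus reads and was in 10 of 10 libraries. KO libraries held 0.138%, 0.0716%, 0.0848%, 0.241% and 0.0727% of it, and WT libraries 0.0462%, 0.0436%, 0.0620%, 0.0737% and 0.0730%. The 2 groups overlapped, and the difference was not called (unadjusted p = 0.116; edgeR adjusted p = 0.591). Row 1575 (18.6%) was in 3 KO and 4 WT libraries, and 75 of its 140 reads came from library 24 (unadjusted p = 0.607; edgeR adjusted p = 0.815). Rows 1567 (L. reuteri, 6 reads) and 1658 (L. intestinalis, 5 reads) were both found only in KO library 21, while rows 1721 and 1570 had 40 and 28 reads in 3 and 4 libraries. Both sets of libraries thus held a single L. reuteri and a single L. intestinalis variant, each pair in 1 library.

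**Figure D2:**
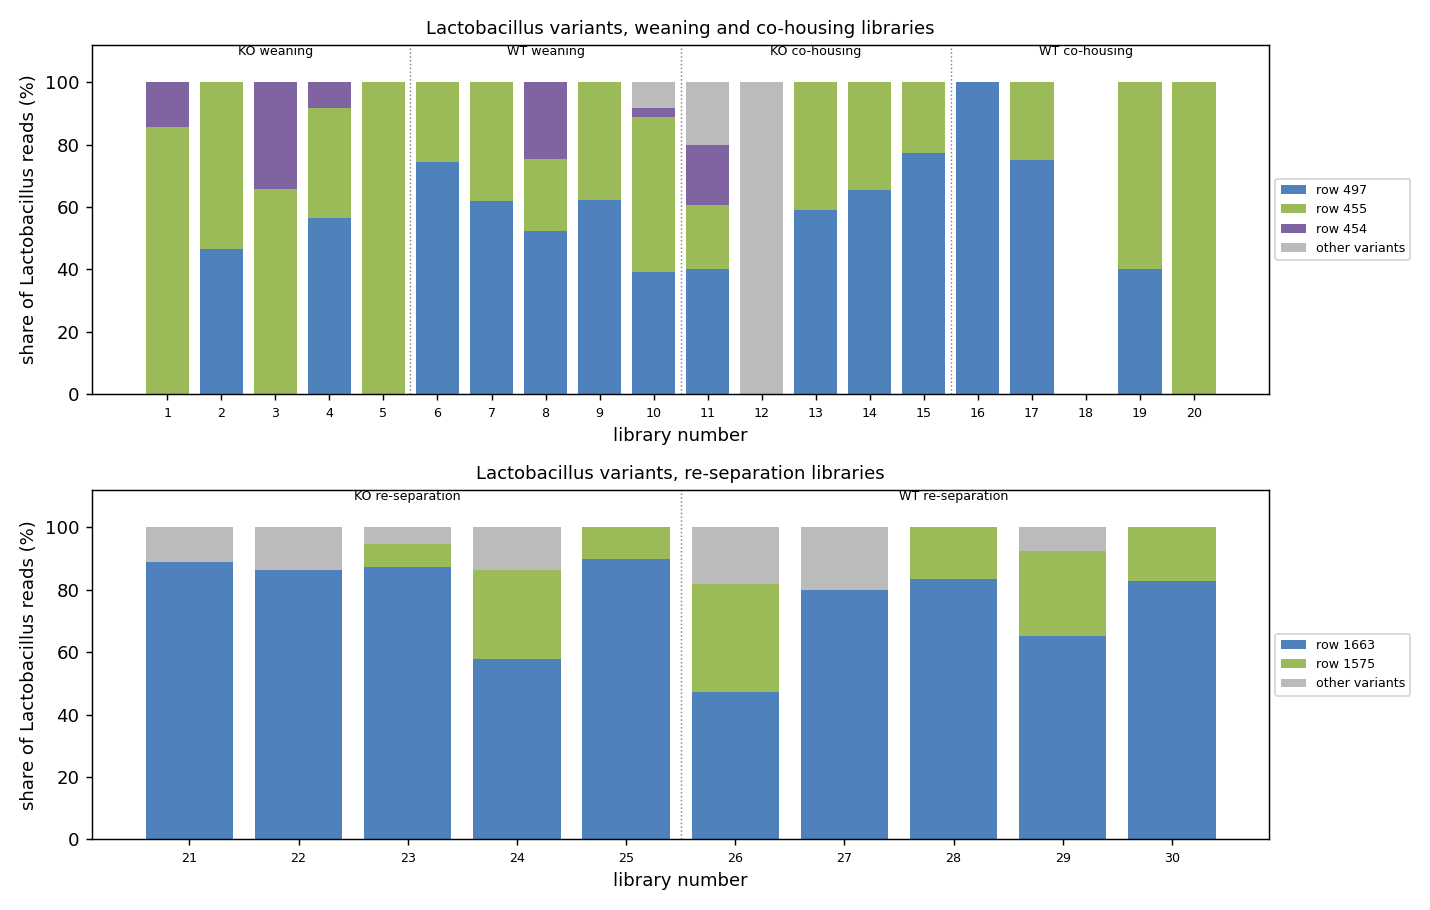
Percentage of each library's Lactobacillus reads held by its leading variants, in the weaning and co-housing libraries (top) and the re-separation libraries (bottom); each bar is 1 library, and library 18 had no Lactobacillus reads. Rows 497 and 455 made up most of the genus in most libraries of the upper panel and row 1663 in the lower one, and row numbers of the panels do not correspond to each other.

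Dolosigranulum, a genus of the Carnobacteriaceae known from the upper airway, was the only other Lactobacillales genus. It had 3 reads in WT library 10 (0.00794%) and none elsewhere.

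Erysipelotrichaceae without a genus name were the only member genus called between genotypes. At weaning 5 of 5 KO libraries had 0 reads, whereas WT libraries held 0, 0.0830%, 0.0764%, 0.0692% and 0.0238%. The groups met only at 0, in WT library 6. The WT mean of 0.0505% ± 0.0365 was at least 3.23-fold above KO, and at least 2.71-fold without library 7. The difference was called (edgeR adjusted p = 0.00334) and was called under 38 of 38 alternatives.

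The name was present in KO mice after co-housing, in 3 of 5 libraries. They held 0.491%, 0, 0.156%, 0 and 0.0259%, a mean of 0.135% ± 0.209. That is at least 8.59-fold above KO at weaning, and at least 2.90-fold without library 11 (edgeR adjusted p = 0.00197, called under 37 of 37 alternatives). WT libraries after co-housing held it only in library 16 (0.0680%). The genotype difference after co-housing was not called (log2 fold change 3.32 ± 1.48; edgeR adjusted p = 0.256), but was without library 16 (0.00802).

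After re-separation it was found in 10 of 10 libraries. KO libraries held 0.0493%, 0.0905%, 0.122%, 0.00786% and 0.0129%, and WT libraries 0.00680%, 0.0109%, 0.00532%, 0.00686% and 0.0227%. Libraries 21, 22 and 23 lay above all WT libraries and libraries 24 and 25 within their range. The means were 0.0565% ± 0.0494 and 0.0105% ± 0.00711 (log2 fold change 2.58 ± 1.44; edgeR adjusted p = 0.743). Against KO at weaning the KO mean was at least 3.61-fold higher, and at least 2.56-fold without library 23 (edgeR adjusted p = 0.00367, called under 38 of 38 alternatives).

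The change of its genotype difference was called for both intervals from weaning. The edgeR adjusted p was 0.00159 to co-housing and 0.00369 to re-separation. The fitted sizes of 11.2 and 10.46 (log2) depend on the prior count, since KO libraries at weaning had 0 reads. The first call was lost without libraries 1, 5, 11 and 19 together (adjusted p = 0.0750). The second was made under 38 of 38 alternatives.

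At the level of variants, WT libraries at weaning carried either of 2 sequences. Row 505 was in libraries 7 and 8 (13 and 40 reads) and row 429 in libraries 9 and 10 (14 and 9 reads). After co-housing both occurred together, in KO libraries 11 and 13 and in WT library 16. Row 429 held 57, 30 and 14 reads there and row 505 held 68, 24 and 11. Both were called higher in KO after co-housing than at weaning (edgeR adjusted p = 0.0453 for each), at least 3.79-fold for row 429 and at least 4.16-fold for row 505. Without library 11 row 429 was at least 1.17-fold higher and row 505 lay under the floor. Neither call was made without library 11 or without any single KO library of weaning, nor in DESeq2 or limma-voom. The genotype differences at weaning were not called (edgeR adjusted p = 0.0751 and 0.0591).

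The re-separation set divided the unnamed Erysipelotrichaceae among 5 variants. Row 1518 had 31, 27, 40, 5 and 8 reads in the KO libraries, and among WT 4 reads in library 29 alone. All KO values lay above all WT values, the nearest pair being 0.00786% in library 24 and 0.00686% in library 29. Its log2 fold change of 4.70 ± 1.55 was not called in edgeR (adjusted p = 0.165) but was by DESeq2 (0.00324) and limma-voom (0.0308). Only KO libraries 21, 22 and 23 held 10 of its reads or more. Row 1518 had thus passed the filter only through KO, where it was high, and these values are a description. Row 1689 had 21 and 29 reads in KO libraries 22 and 23 and none elsewhere. Rows 1517, 1703 and 606 were found only in WT, with 11 reads in libraries 26 and 30, 8 in libraries 27 and 28, and 3 in library 26. Each of these 4 variants was under the filter.

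**Figure D3:**
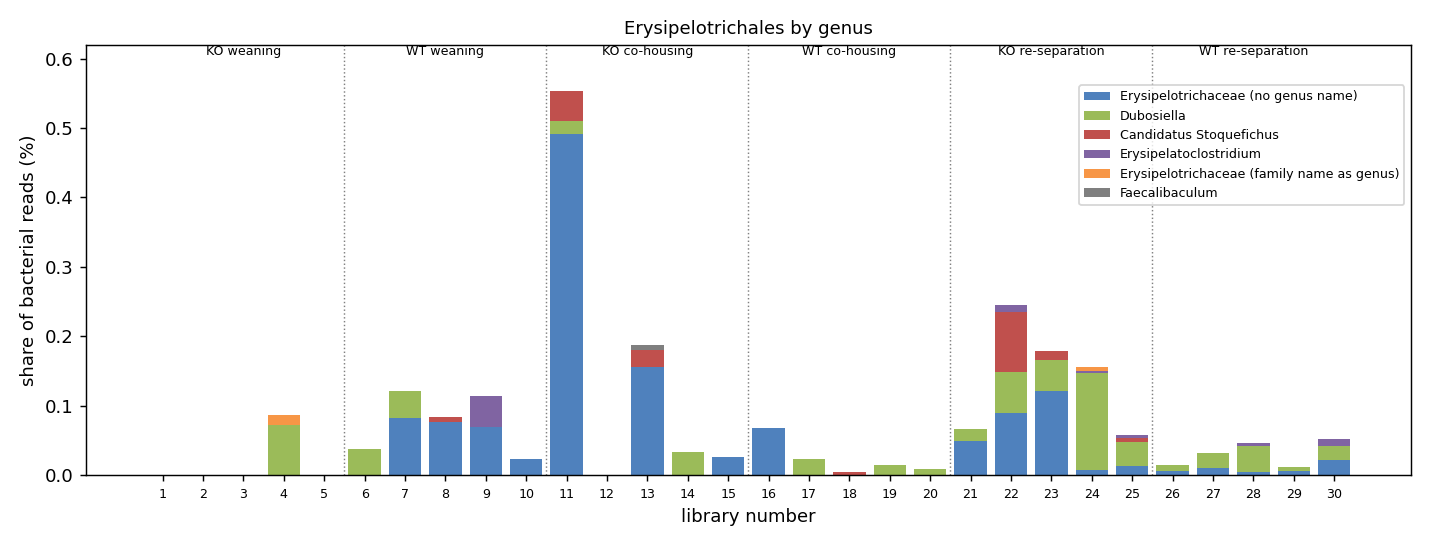
Share of bacterial reads (%) held by each Erysipelotrichales genus or lowest name in each of the 30 libraries, stacked, with the groups divided by dotted lines. KO libraries at weaning were empty apart from library 4, library 11 reached 0.554%, and the 5 KO libraries after re-separation stood above the 5 WT libraries.

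Candidatus Stoquefichus, an uncultured genus of the Erysipelatoclostridiaceae, had reads in 7 libraries, 5 of them KO. At weaning it had 4 reads in WT library 8 and none in KO. After co-housing it had 11 and 10 reads in KO libraries 11 and 13 and 2 reads in WT library 18. After re-separation it had 46, 7 and 3 reads in KO libraries 22, 23 and 25 and 0 reads in WT. Each library set held it as 1 variant, row 507 and row 1701.

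The KO mean after re-separation was 0.0208% ± 0.0372, at least 3.63-fold above WT, and library 22 decided it. Without that library the mean lay under the floor and no bound can be given. The genotype difference was not called (unadjusted p = 0.00231; edgeR adjusted p = 0.108), nor was it after co-housing (log2 fold change 3.21 ± 1.78; adjusted p = 0.504) or at weaning (-3.24 ± 2.09; adjusted p = 0.252). Compared with KO at weaning the edgeR adjusted p was 0.0304, for a mean at least 1.33-fold higher that lay under the floor without library 22. The genus had reached the filter only through KO libraries 11, 13 and 22, which are among those where it was high. The call was made under 25 of the 32 alternatives in which it could be fitted, and was lost in DESeq2 (0.336) and limma-voom (0.339). Without any one of libraries 11, 13 and 22 the genus fell under the filter. From weaning to re-separation the change of its genotype difference had an edgeR adjusted p of 0.0173 (log2 9.29, which depends on the prior count). It rested on the 4 reads of WT library 8: without that library it was 6.05 and not called (adjusted p = 1), nor was it in DESeq2 (0.254) or limma-voom (0.0666).

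Dubosiella had reads in 8 of libraries 1 to 20 and in 10 of 10 after re-separation, where libraries were deeper. No difference between times was called for the genus in edgeR in either genotype. From weaning to re-separation the WT mean was 0.0153% and then 0.0185% (log2 fold change -0.01 ± 1.55). The KO mean was 0.0145% and then 0.0591% (1.61 ± 1.53, edgeR adjusted p = 0.578). At weaning it had 24 reads in KO library 4 and 9 and 6 reads in WT libraries 6 and 7. Co-housed KO libraries 11 and 14 held 5 and 7 reads, and WT libraries 17, 19 and 20 held 5, 3 and 3. After re-separation KO libraries held 0.0175%, 0.0584%, 0.0442%, 0.140% and 0.0356%, and WT libraries 0.00815%, 0.0218%, 0.0372%, 0.00514% and 0.0201%.

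The ranges overlapped after re-separation, with means of 0.0591% ± 0.0476 in KO and 0.0185% ± 0.0127 in WT. Between genotypes the genus was not called then (log2 fold change 1.94 ± 1.53; edgeR adjusted p = 0.743), after co-housing (0.08 ± 1.53; adjusted p = 1) or at weaning (0.31 ± 1.56; adjusted p = 0.979). At weaning the sign turned to -5.87 without library 4, with an adjusted p of 0.0447. After co-housing the sign turned under 5 alternatives, none of them called.

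The KO and WT libraries differed instead in which Dubosiella variant they held after re-separation. The genotypes were housed apart by then and cages are not labelled, so genotype and cage cannot be told apart here. Row 1693, labelled as an uncultured bacterium, had 11, 31, 25, 89 and 22 reads in the 5 KO libraries and 0 in the 5 WT libraries. Its KO mean of 0.0591% ± 0.0476 was at least 10.3-fold above WT, and at least 6.80-fold without library 24. It was called (edgeR adjusted p = 0.0400; 0.0481 without a filter), against 1.44% of all 278 variants tested in this set. It had passed the filter only through the KO libraries, where it was high, so its count among the members is a description. The call was made under 7 of 16 alternatives. It was lost without any single one of libraries 21 to 24 and 26 to 30 (adjusted p up to 0.123) and was made by DESeq2 (4.54e-07) and limma-voom (0.00360).

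The variants labelled Dubosiella_newyorkensis showed the reverse. Row 1685 had 6, 7, 21, 0 and 8 reads in WT libraries 26 to 30 and 0 in the 5 KO libraries. Row 1676 had 3 reads in library 29, the WT library that row 1685 lacked. The 2 rows together were thus in 5 of 5 WT libraries (0.0172% ± 0.0126) and in 0 of 5 KO libraries. Row 1685 was at least 3.19-fold above KO, and at least 2.15-fold without library 28. It had 10 reads or more in 1 library only, so it was under the filter, and without a filter it was not called (unadjusted p = 0.0114; edgeR adjusted p = 0.226). The remaining WT variant, row 1691 with an uncultured label, had 3 reads in library 27.

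At weaning the labels lay the other way round, in few libraries, with the newyorkensis label (row 503) in KO library 4 and the uncultured label (row 506) in WT libraries 6 and 7. After co-housing row 503 was in KO library 11 and WT libraries 19 and 20, and row 506 in KO library 14 and WT library 17, so each genotype held both labels. No library of the weaning and co-housing set held both. Row numbers of the 2 sets cannot be matched to each other without their sequences, so only the labels can be set side by side.

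**Figure D4:**
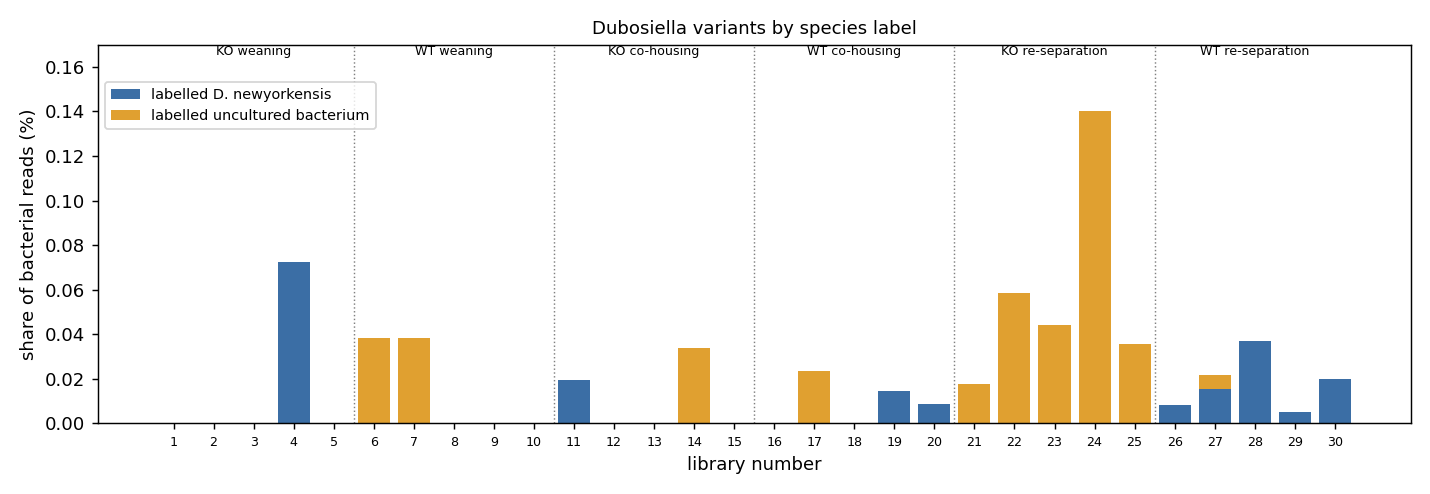
Share of bacterial reads (%) of Dubosiella variants by species label in each of the 30 libraries, stacked, with the groups divided by dotted lines. After re-separation the 5 KO libraries held only variants with the uncultured label (0.0175% to 0.140%), and the 5 WT libraries all held the newyorkensis label, with library 27 holding both.

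The remaining Erysipelotrichales were found in few reads. Erysipelatoclostridium, which includes former Clostridium species, had 9 reads in WT library 9 at weaning and 16 reads in 5 re-separation libraries, 3 KO and 2 WT. Faecalibaculum, a lactate-forming mouse genus, had 3 reads in KO library 13. Variants carrying the family name Erysipelotrichaceae in place of a genus had 5 reads in KO library 4 and 3 in KO library 24. None of these 3 names passed the filter.

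In the genotype comparisons 1 of the 4 member genera tested was called at weaning, 0 in co-housed mice and 0 once re-separated. Over all 72 genera tested the shares called were 23.6%, 1.39% and 0% in that order. The 0 counts came with 1 member genus at an unadjusted p under 0.05 at each of the later times, and DESeq2 and limma-voom also called 0 there. At the level of variants 0 of 5 members were called at weaning (20.9% of 292 variants) and 0 of 5 after co-housing (1.03%), with 2 and 1 at an unadjusted p under 0.05, and 0 by DESeq2 and limma-voom.

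Over time, 1 of 4 member genera was called between weaning and co-housing in KO (31.9% of all genera) and 1 of 4 in WT (29.2%). Between weaning and re-separation 2 of 4 were called in KO (27.8%) and 1 of 4 in WT (12.5%). Between co-housing and re-separation 0 of 4 were called in KO (19.4%) and 0 of 4 in WT (1.39%), with 0 at an unadjusted p under 0.05. DESeq2 called 0 there, and limma-voom called 1 in KO. Of 5 member variants 2 were called between weaning and co-housing in KO (27.1% of variants) and 0 in WT (0.685%), where 1 had an unadjusted p under 0.05 and DESeq2 and limma-voom called 0.

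The genotype difference changed in 1 of 4 member genera between weaning and co-housing (4.17% of all genera) and in 3 of 4 between weaning and re-separation (18.1%). Between co-housing and re-separation it changed in 0 of 4 (0% of all genera; 0 members at an unadjusted p under 0.05; 0 by DESeq2 and limma-voom). The 4 genera were those that passed a filter on reads, and the 3 comparisons share libraries, so these counts describe the genera and carry no test of their own.

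Most member variants were found in few libraries. Of the 18 in the weaning and co-housing set 9 had reads in 1 library only, and of the 19 in the re-separation set 7 did. A library of the first set held 1 to 10 member variants, with the most in library 11 (10) and library 13 (7). Library 11 held 3 variants found nowhere else, with 55 reads. After re-separation KO libraries held 5 to 8 member variants and WT libraries 5 or 6.

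The other Bacilli and the lactate-using genera of the table were read beside the members. Of 5 tested (Mycoplasma, Ureaplasma, RF39, Desulfovibrio and Bilophila) 0 were higher and 2 lower in KO at weaning, and 0 were called after co-housing or re-separation (2 and 0 with an unadjusted p under 0.05). The 2 were Ureaplasma, a urea-splitting relative of Mycoplasma (log2 fold change -2.65 ± 0.92; edgeR adjusted p = 0.0274), and RF39, an uncultured order of Bacilli. RF39 had 0 reads in KO and was found in 3 of 5 WT libraries. The WT mean over all 5 libraries was 0.112% ± 0.136, at least 7.16-fold higher and 3.83-fold without library 10 (edgeR adjusted p = 0.00102). The median log2 difference of the 5 at weaning was -0.53, against 0 over all genera. In WT between weaning and co-housing 0 of the 5 were higher and 1 lower, again Ureaplasma (-3.45 ± 0.95; edgeR adjusted p = 0.0105). In KO RF39 was called higher after co-housing than at weaning (edgeR adjusted p = 0.0395). It then had reads in 1 of 5 libraries, and the group mean lay under the floor of KO at weaning. RF39 was also called higher after re-separation (edgeR adjusted p = 0.00170), at least 5.14-fold above weaning and 1.49-fold without library 22. Bifidobacterium, the other lactate former looked for, had 3 reads in KO library 15.

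The genera whose shares followed Lactobacillus most closely over the 20 weaning and co-housing libraries were Parasutterella (Spearman's rho 0.671), Muribaculaceae with the family name as genus (0.587) and Prevotellaceae UCG-001 (0.587), out of 68 genera compared. Over the 10 re-separation libraries the same pairs gave 0.127, 0.273 and -0.115. For Dubosiella the closest were Clostridia UCG-014 (0.466), the NK4A214 group (0.352) and Alloprevotella (0.349), with -0.176, -0.0424 and -0.152 after re-separation. Dubosiella had reads in only 8 of the 20 weaning and co-housing libraries, so most of its shares there were tied at 0. These values describe shares that add up to a whole within a library and that vary with group and depth, so no test was made.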

How the data were processed

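Per the labels' protocols, stool DNA was amplified over the V4 region and read in paired ends. The authors deposited raw counts, a whole number for each variant and library. R 4.5.1 and limma appear in the submitters' processing notes with no role stated. How reads were denoised and named is not given in the sources here. Of 3697 rows 2744 had no reads. The 4 rows named as mitochondria were left out of totals. Members and lists were chosen with earlier results of these data known. Every member genus and variant is named. Fold changes, or bounds where a group had 0 reads, are given for genotype comparisons of genera and orders. They are also given for most others with unadjusted p under 0.05, a limit set after the values were seen. Not given above were 3 without a call in edgeR: Candidatus Stoquefichus from weaning to co-housing in KO (log2 5.21 ± 2.16) and in its genotype difference (6.44 ± 2.81), and Lactobacillus row 454 over that interval in WT (-5.66 ± 2.31). Each had a group with 0 reads, so these sizes depend on the prior count. The lowest member count above 0 was 2, so low counts may have been removed earlier, and bounds would then be too high. PCR reads are not independent molecules, and the floors include counting error alone.

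Tests were run in edgeR 4.0.16 (R 4.3.3, glmQLFit robust, TMMwsp, 1 coefficient per group). They covered 72 genera and 27 orders over 30 libraries, 292 variants in 20 and 278 in 10. A check on simulated data used only variants of the 20 weaning and co-housing libraries, for the differences between these times within a genotype. Genera, orders, re-separation variants, genotype comparisons and interaction terms were not simulated. Alternatives were other scalings, filters, DESeq2 1.42.0, limma-voom (limma 3.58.1) and fits of the groups compared. Others were each library left out, totals with mitochondria and thinning to 10491 reads. For genera and orders the libraries left out included those outside the groups compared, so many alternatives differ little from the main fit. Python 3.11.15 with pandas 2.3.3 and scipy 1.17.1 was used for shares.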

Additional observations from a re-analysis of the deposited data

Results flagged for a closer look

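In several groups of 5 a single library stood far from the other 4 by Dixon's criterion, which normally distributed values meet in about 1 in 20 groups. KO library 24 after re-separation was highest for Lactobacillus and for its order (both 0.4151%). KO library 4 at weaning was highest for Erysipelotrichales (0.08757%), Dubosiella (0.07247%) and Erysipelotrichaceae with the family name as genus (0.0151%). KO library 22 after re-separation was highest for Candidatus Stoquefichus (0.08669%), and WT library 16 after co-housing for Erysipelotrichaceae without a genus name (0.06801%). For the names given for libraries 4 and 16 no other library of the group had reads. The criterion is then always met, as in the next paragraph, and the rate of 1 in 20 does not apply.

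The remaining cases are names seen in only 1 library of a group: Candidatus Stoquefichus in WT library 8 (0.007639%) and WT library 18 (0.005257%), Dolosigranulum in WT library 10 (0.007941%), Erysipelatoclostridium in WT library 9 (0.04448%), the family-named Erysipelotrichaceae in KO library 24 (0.004718%) and Faecalibaculum in KO library 13 (0.007293%).

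The genotype difference changed between times, by the interaction test of edgeR, in 4 cases. Erysipelotrichaceae without a genus name moved by 11.2 (log2) from weaning to co-housing and by 10.46 to re-separation, Candidatus Stoquefichus by 9.29 and Lactobacillus by 3.72 to re-separation. The values of 9 and more depend on the prior count, since KO libraries at weaning had 0 reads. That of Candidatus Stoquefichus was 6.05 and not called without WT library 8.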

How the results depend on the processing

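No paired analysis was possible because the labels do not follow a mouse between times. Samples of the same mouse at different times, if there were any, were treated as independent. Of 90 pairs of a member taxon and a comparison 15 were called, and 0 of these changed sign under any alternative; of the rest 25 changed sign under at least 1. Among the fold changes printed, Dubosiella in KO against WT at weaning turned to -1.0 in limma-voom and ranged from -5.87 to 1.19 over the fits that left out 1 library, below 0 without library 4, 8 or 10. After co-housing it turned to -0.34 in limma-voom and ranged from -0.99 to 0.58, below 0 without library 11, 14, 16 or 18. Lactobacillus row 454 after co-housing ranged from 0.0 (without library 11) to 6.94, and was 0.0 without libraries 1, 5, 11 and 19, which were chosen after seeing the data.

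Counts of member genera called moved as follows. KO against WT, at weaning 1 became 2 in DESeq2 and 1 to 3 with a library left out; after co-housing 0 became 0 to 1 with a library left out. From weaning to co-housing in KO, 1 became 0 with only the groups compared and 1 to 2 with a library left out. In WT 1 became 2 without a filter, in DESeq2 and in limma-voom, and 1 to 2 with a library left out. From weaning to re-separation in KO, 2 became 1 under library size scaling, the filter of 10 reads in 5 libraries, DESeq2, only the groups compared and without libraries 1, 5, 11 and 19, and 1 to 2 with a library left out. In WT 1 became 0 in limma-voom and 0 to 1 with a library left out. From co-housing to re-separation in KO 0 became 1 in limma-voom. The change of the genotype difference to co-housing went from 1 to 2 without a filter and in DESeq2, to 0 without libraries 1, 5, 11 and 19, and to 1 to 2 with a library left out. To re-separation it went from 3 to 1 in limma-voom and without libraries 1, 5, 11 and 19, and to 1 to 4 with a library left out.

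For orders at weaning 0 became 1 in DESeq2, limma-voom and only the groups compared, and 0 to 2 with a library left out. From weaning to co-housing 0 became 1 in KO in limma-voom (0 to 1 with a library left out) and 1 became 2 in WT in DESeq2 and only the groups compared. From weaning to re-separation 0 became 1 in KO (0 to 1 with a library left out) and 1 became 0 in WT, both in limma-voom. For variants from weaning to co-housing in KO, 2 became 0 under library size scaling, no filter, DESeq2, limma-voom, only the groups compared and without libraries 1, 5, 11 and 19, 1 under the filter of 10 reads in 5 libraries, and 0 to 2 with a library left out. After re-separation 1 became 2 in DESeq2 and limma-voom and 0 to 1 with a library left out. The cause of these moves was not tested, except that taxa under a filter could not be fitted.

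Scaling by library size moved the median over genera by 0.92 (log2) from weaning to co-housing in WT and by 0.43 between genotypes at weaning. For the change of the genotype difference from weaning it moved by -0.96 to re-separation and by -0.78 to co-housing. All other moves were less than 1 in size. Including mitochondria in totals moved no share beyond its SD. Most members had under 100 reads in a library, and at 10491 reads Erysipelotrichales would be expected in 3.99 of the 5 WT libraries after co-housing, Dubosiella in 3.88, Erysipelotrichaceae without a genus name in 3.21 of the 5 WT and Erysipelatoclostridium in 1.40 of the KO libraries after re-separation.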
